A study of Mus musculus with 6 samples.

Results

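The genes that fold, check and clear proteins in the endoplasmic reticulum (ER) were followed in mouse liver after knockdown of Rnf10, which encodes a RING-finger E3 ubiquitin ligase. The group was a list of 33 named genes: ER chaperones, protein disulfide isomerases, J-domain co-chaperones, sensors and transcription factors of the unfolded protein response (UPR), components of ER-associated degradation, and parts of the translocon and signal peptidase. The genes were listed by function, with earlier results of these data known, and all 33 were found among the 55487 genes in the count table. Each of the 33 also had enough counts to be tested, the smallest count of any of them in any mouse being 120. They were compared between 3 GalNAc-siNC mice and 3 GalNAc-siRnf10 mice.

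All 6 mice were wild-type C57BL/6J males on a normal chow diet, injected subcutaneously, with livers taken at 17 weeks of age and 1 library per mouse. GalNAc-siNC carries a control siRNA, and GalNAc-siRnf10 an siRNA against Rnf10. The GalNAc sugar is taken up by the asialoglycoprotein receptor of hepatocytes, so other liver cells are not the intended target, whereas whole tissue was sequenced. Total counts per library lay between 26854377 and 33058645, and the labels name no batch that differs between the libraries.

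Secretory proteins enter the ER through the translocon, fold with the help of BiP (Hspa5), calreticulin and disulfide isomerases, and are returned to the cytosol for degradation when they fail to fold. When unfolded protein accumulates, the sensors IRE1 (Ern1), PERK (Eif2ak3) and ATF6 start the UPR. IRE1 splices the mRNA of Xbp1, and XBP1 and ATF6 raise the transcription of chaperones and degradation factors. The liver secretes most plasma proteins, and hepatocytes keep these genes at high levels without added stress.

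ATF6 and XBP1 act at a promoter motif named the ER stress response element (ERSE), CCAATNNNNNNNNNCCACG, and at a shorter form, ERSE-II, ATTGGNCCACG. Both were searched on either strand in RefSeq promoter windows of 300 bases (GRCm38.p6), reaching from 250 bases before to 50 bases after the start site. Windows were at hand for 27 of the 33 members, the others being Atf6, Derl1, Hyou1, Manf, Sec11c and Sec61a1. An exact ERSE was present in 9 of the 27 members (33.3%): Calr, Canx, Creld2, Derl3, Dnajc3, Hsp90b1, Hspa5, Pdia6 and Syvn1. Over all genes with a window, 37 of 27025 (0.137%) held one. ERSE-II was found in Dnajb11 and Herpud1, and in 12 genes over all windows (0.0444%). No member window held the UPR element TGACGTGG exactly, which occurred in 0.714% of all genes with a window. The motif sites of Hspa5, of the members that both held an ERSE and fell, and of both members with ERSE-II are shown because the results below refer to them. They are written 5′ to 3′ on the strand that carries the motif, and the capitals mark its fixed letters.
Hspa5 ERSE: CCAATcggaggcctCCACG
Calr ERSE: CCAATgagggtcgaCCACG
Hsp90b1 ERSE, nearer site: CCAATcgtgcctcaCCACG
Hsp90b1 ERSE, farther site: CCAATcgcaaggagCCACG
Pdia6 ERSE: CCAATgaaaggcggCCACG
Syvn1 ERSE: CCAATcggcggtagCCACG
Derl3 ERSE: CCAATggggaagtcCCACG
Herpud1 ERSE-II: ATTGGgCCACG
Dnajb11 ERSE-II: ATTGGcCCACG

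In GRCm38.p6, the Hspa5 site lay at chr2:34772025-34772043 on the plus strand, from -65 to -47 relative to the start site, which is counted as 0. The Calr site was at chr8:84847075-84847093 on the plus strand, opposite to the gene, and the Pdia6 site at chr12:17266491-17266509 on the plus strand. The pair of Hsp90b1 sites lay at chr10:86705533-86705551 on the plus strand and chr10:86705638-86705656 on the minus strand, and the gene itself is read from the minus strand. The Syvn1 site, at chr19:6046532-6046550 on the plus strand, ended at -26, closer to the start than any other printed ERSE. The Derl3 site was at chr10:75893242-75893260 on the minus strand. ERSE-II of Herpud1 lay at chr8:94386377-94386387, before the start site, and that of Dnajb11 at chr16:22857852-22857862, from 7 to 17 bases after it, both on the plus strand. A match of letters is a description of the window and not evidence of binding.

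Rnf10 (ENSMUSG00000041740, chr5:115241412-115272898, minus strand, GRCm38) was examined first as a check of the labels. Its level, in CPM (counts scaled by the TMM-adjusted size of each library, the unit of every per-mouse value here), was 130, 153 and 136 in GalNAc-siNC mice 1 to 3 and 58.6, 61.4 and 60.4 in GalNAc-siRnf10 mice 1 to 3. The groups did not overlap, and Rnf10 fell by 57.0%, with a log2 fold change of -1.22 (SE 0.0715, adjusted p = 3.29e-09, edgeR quasi-likelihood test with Benjamini-Hochberg adjustment over 14046 tested genes). Log2 fold changes below are of GalNAc-siRnf10 over GalNAc-siNC from this fit, and a gene was called at an adjusted p under 0.05. The mice are separate animals, and the exact two-sided permutation test of 3 against 3 cannot give a p below 0.1.

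GalNAc-siNC mouse 1 stood apart from its group in a chi-square of raw counts, a measure that abundant genes weigh on most. The chi-square per gene between its counts and those of mice 2 and 3 was 33.8 and 32.9, against 11.3 between mice 2 and 3 and 4.97 to 5.74 among the GalNAc-siRnf10 mice. Its members did not stand apart in one direction: within the control group, it had the highest value of 15 members and the lowest of 11.

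Of the 15 chaperones, isomerases and co-chaperones, 9 fell in the GalNAc-siRnf10 livers and none rose, while Herpud1, a degradation factor, rose 1.84-fold. Of the 33 members, 15 fell, 2 rose (Herpud1 and Ern1) and 16 did not pass the test. Over all 14046 genes tested, 14.0% were called, 7.28% lower and 6.71% higher. The median log2 fold change of the members was -0.19, against 0.0022 over all tested genes. Negative values were found for 26 members and positive values for 7. With a correction for GC content and length, Dnajb9 (-0.0032) and Selenos (-0.14) moved from positive to negative, and no member moved the other way. In 24 members the highest GalNAc-siRnf10 mouse lay below the lowest GalNAc-siNC mouse, a pattern that 16.4% of all tested genes showed, and 2 members had the opposite pattern, against 16.5%. Members that fell numbered 19, 17 and 14 without GalNAc-siNC mouse 1, 2 or 3, and 2, 1 and 2 rose. Leaving out GalNAc-siRnf10 mouse 1, 2 or 3 left 11, 11 and 12 that fell, and 1 that rose each time. The count of all genes called also moved, from 1965 to 2864, 1633 and 1900 without GalNAc-siNC mouse 1, 2 or 3. It was 1053, 1128 and 1128 without GalNAc-siRnf10 mouse 1, 2 or 3. In bulk tissue, fewer cells of a type and less RNA per cell cannot be told apart.

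**Figure D1:**
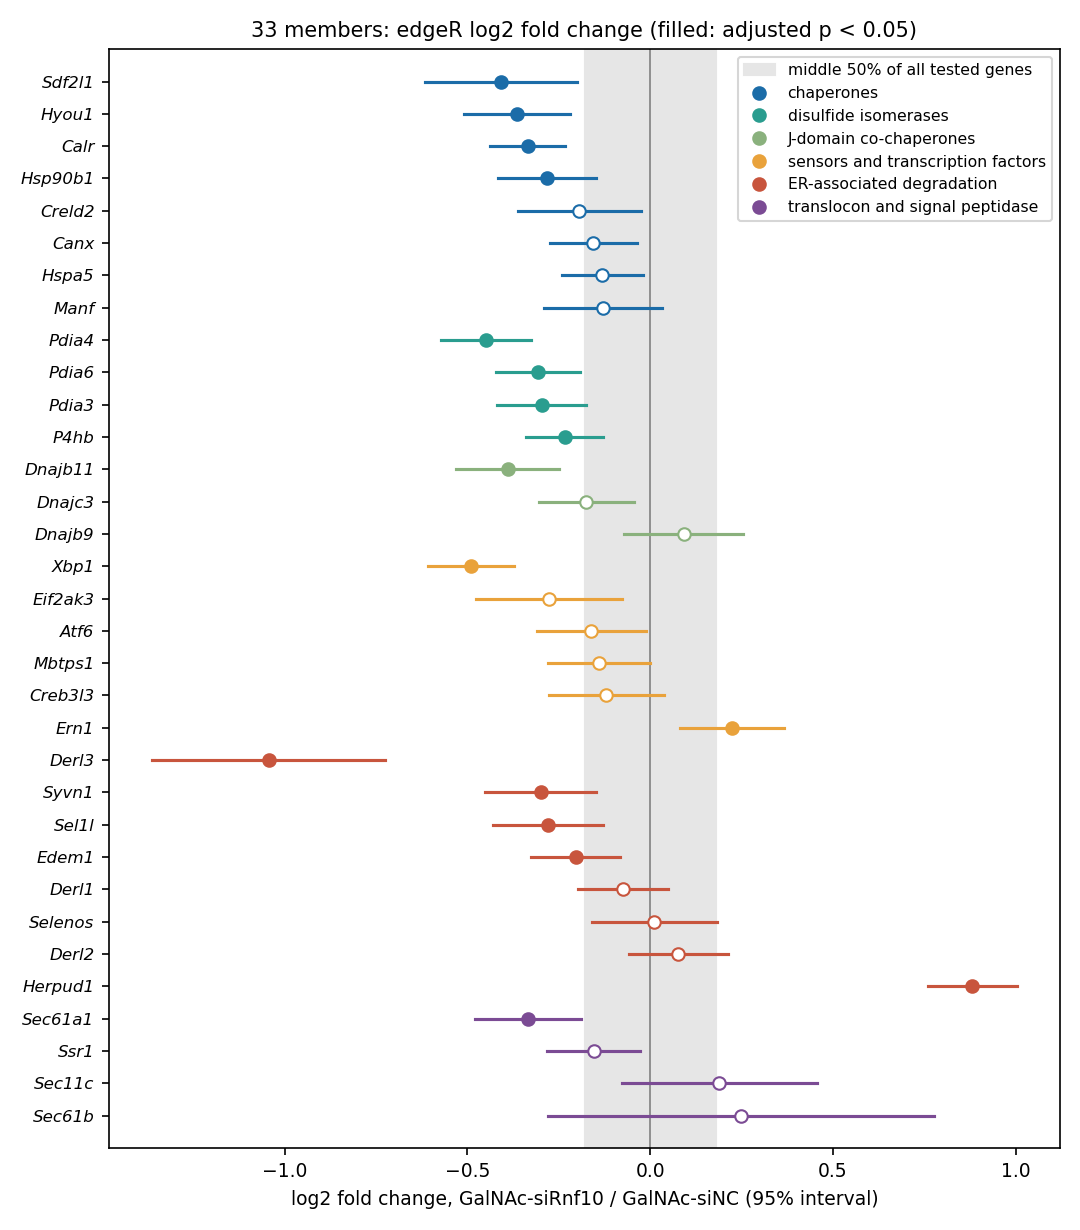
Log2 fold change of GalNAc-siRnf10 over GalNAc-siNC (x axis) for each of the 33 members (y axis, ordered by role), with its 95% interval from edgeR; filled points are called at an adjusted p under 0.05, and the grey band holds the middle 50% of all 14046 tested genes. Most points lie left of 0, with Derl3 at -1.04 and Herpud1 at 0.88 as the extremes.

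Summed over the members, CPM was 8926, 8779 and 8628 in the GalNAc-siNC mice and 7712, 7640 and 7694 in the GalNAc-siRnf10 mice. The members took 0.920%, 0.888% and 0.867% of the raw counts of the controls, and 0.754%, 0.750% and 0.762% after knockdown. The groups were thus separate in both sums. Levels per length ranged widely. In the controls, P4hb was the highest member at 548 ± 19.9 RPKM (CPM divided by the length of the gene model in kilobases, SD, n = 3), followed by Calr at 412 ± 3.59, Pdia3 at 194 ± 8.41, Hspa5 at 170 ± 7.25 and Hsp90b1 at 142 ± 13.5. The lowest were Derl3 at 5.66 ± 0.388, Sec11c at 3.35 ± 0.725 and Eif2ak3 at 3.08 ± 0.0943 RPKM. Both P4hb, the first in this order, and Derl3, at place 31, fell.

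**Figure D2:**
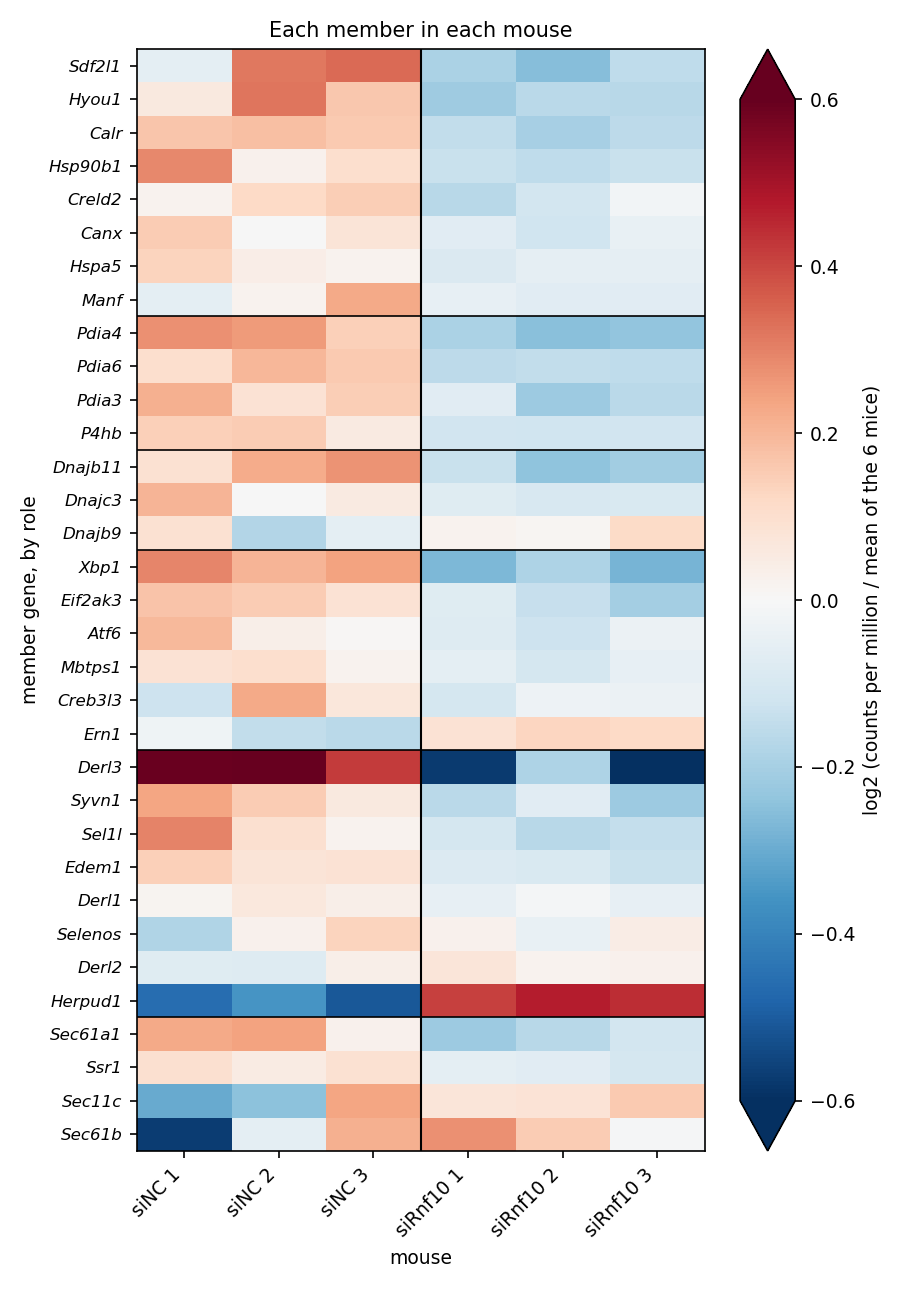
Each member (rows, by role) in each mouse (columns), coloured by the log2 of its CPM over its mean in the 6 mice. The 3 GalNAc-siRnf10 columns are blue for most folding genes, whose groups share no value, and the Herpud1 and Ern1 rows show the opposite order; Derl3 in GalNAc-siRnf10 mouse 3, at -0.85, lies below the end of the colour scale at -0.6.

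Among the 8 chaperones, 4 fell and none rose (0 higher with edgeR, with DESeq2 and with limma voom, and 0 at an unadjusted p under 0.05), with a median log2 fold change of -0.24. Calr (ENSMUSG00000003814, chr8:84841850-84846934) encodes calreticulin, a calcium-binding lectin that holds newly made glycoproteins. Its CPM was 1185, 1198 and 1178 in the GalNAc-siNC mice and 955, 920 and 947 in the GalNAc-siRnf10 mice. The controls varied by a CV of only 0.872%, and Calr fell by 0.34 on the log2 scale (SE 0.0490, adjusted p = 0.000144), or by 20.7%. Hyou1, a large Hsp70-type chaperone that also serves as nucleotide exchange factor of BiP, stood at 158, 189 and 169 CPM in the controls and at 130, 135 and 135 CPM after knockdown. Its groups were separate, and its log2 fold change was -0.36 (SE 0.0690, adjusted p = 0.00156). Sdf2l1, a partner of the BiP and Dnajb11 chaperone cycle, measured 32.7, 42.4 and 43.0 CPM in the GalNAc-siNC mice and 29.8, 28.4 and 30.6 CPM in the GalNAc-siRnf10 mice. Control mouse 1 was here close to the knockdown mice, and the log2 fold change was -0.41 (SE 0.0983, adjusted p = 0.00952), a call lost without GalNAc-siNC mouse 3 (adjusted p = 0.0523) and without GalNAc-siRnf10 mouse 1 (0.0521) or 2 (0.0638).

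Hsp90b1, the ER form of Hsp90 (GRP94), was at 633, 528 and 555 CPM in the GalNAc-siNC mice and at 472, 466 and 472 CPM in the GalNAc-siRnf10 mice. Mouse 1 was the highest control, every knockdown mouse was below every control, and the log2 fold change was -0.28 (SE 0.0635, adjusted p = 0.00584). The call was lost without GalNAc-siRnf10 mouse 2 (adjusted p = 0.0508). Hspa5 (ENSMUSG00000026864, chr2:34771970-34777547) encodes BiP, the main Hsp70 chaperone of the ER and the protein that keeps the UPR sensors inactive. It had 754, 706 and 697 CPM in the GalNAc-siNC mice and 647, 663 and 661 CPM in the GalNAc-siRnf10 mice. Although these groups did not overlap, the log2 fold change was -0.13 (95% interval -0.24 to -0.019) and Hspa5 was not called (adjusted p = 0.116). Once GC content and length of the genes were corrected for, the value was -0.13 and the adjusted p 0.0245. The other chaperones without a call were Canx (log2 fold change -0.16, adjusted p = 0.0813), Creld2 (-0.19, adjusted p = 0.127) and Manf (-0.13, adjusted p = 0.303). Without control mouse 1, Manf had a log2 fold change of -0.19 and was called (adjusted p = 0.0272), and without control mouse 3 it was at -0.047 (adjusted p = 0.74).

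All 4 disulfide isomerases fell, enzymes that form and rearrange disulfide bonds in folding proteins. Pdia4 (ENSMUSG00000025823, chr6:47796141-47813430) had the largest of these decreases, from 274, 272 and 251 CPM in the GalNAc-siNC mice to 199, 191 and 193 CPM in the GalNAc-siRnf10 mice. This was a log2 fold change of -0.45 (SE 0.0585, adjusted p = 4.32e-05), or 26.8% less. Pdia6 was at 344, 368 and 357 CPM in the controls and at 287, 289 and 288 CPM after knockdown (log2 fold change -0.31, SE 0.0541, adjusted p = 0.00084). Pdia3, which works with calreticulin and calnexin on glycoproteins, was at 636, 583 and 608 CPM and then at 525, 472 and 491 CPM. Its groups were separate, with a log2 fold change of -0.30 (SE 0.0575, adjusted p = 0.00185). P4hb, the classical isomerase PDI, went from 1595, 1603 and 1501 CPM to 1336, 1328 and 1332 CPM. The log2 fold change was -0.23 (SE 0.0497, adjusted p = 0.00384). None of these 4 calls was lost when any 1 mouse was left out. Summed over the 4 isomerases, CPM was 2849, 2826 and 2716 in the controls and 2346, 2280 and 2304 after knockdown.

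**Figure D3:**
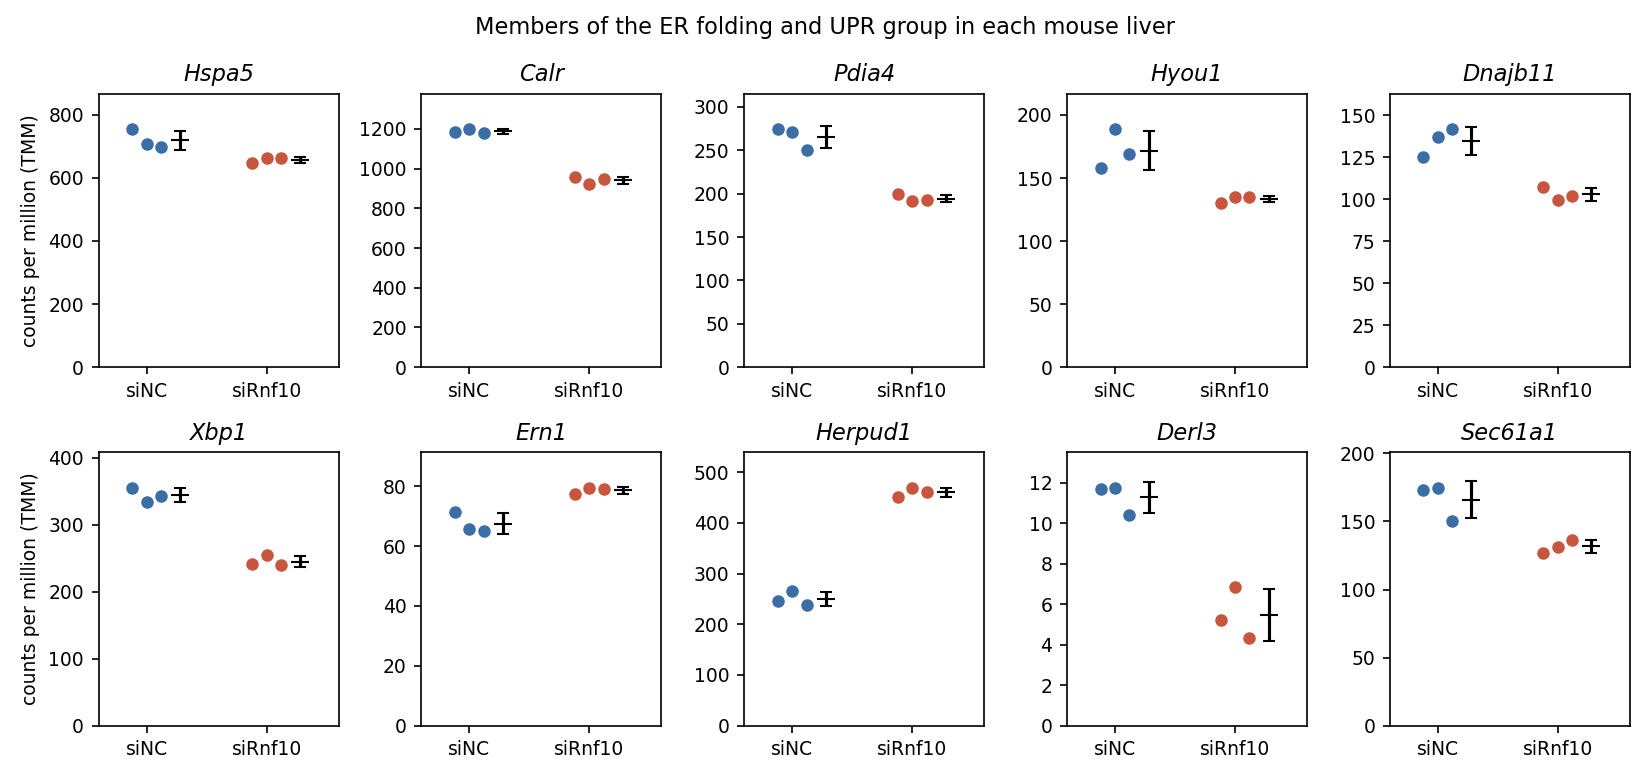
CPM (y axis, from 0) of 10 members in each mouse, with GalNAc-siNC in blue, GalNAc-siRnf10 in red, and the mean ± SD (n = 3) in black. In the 8 genes other than Herpud1 and Ern1, every GalNAc-siRnf10 mouse lies below every GalNAc-siNC mouse; Herpud1 goes from a mean of 250 to 460 CPM.

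Of the 3 J-domain co-chaperones, which hand substrates to BiP and stimulate its ATPase, Dnajb11 fell. It was at 125, 137 and 142 CPM in the GalNAc-siNC mice and at 107, 99.7 and 102 CPM in the GalNAc-siRnf10 mice. The groups were separate, with a log2 fold change of -0.39 (SE 0.0669, adjusted p = 0.000656). Dnajc3 (log2 fold change -0.17, adjusted p = 0.0698) and Dnajb9 (0.09, adjusted p = 0.493) were not called, and Dnajb9 was the only one of the 3 with a positive value. Dnajb9 ran from 0.029 to 0.16 without 1 mouse, and was at -0.0032 once GC content and length were corrected for (adjusted p = 0.979). Dnajc3 was at -0.11 without control mouse 1 (adjusted p = 0.0727), and at -0.22 and called without control mouse 2 (adjusted p = 0.0208).

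The sensors and transcription factors did not move as one. Xbp1 (ENSMUSG00000020484, chr11:5520659-5525893), whose spliced mRNA encodes the active factor of the IRE1 branch, was at 355, 334 and 343 CPM in the GalNAc-siNC mice and at 241, 255 and 239 CPM in the GalNAc-siRnf10 mice. It fell by 28.8%, with a log2 fold change of -0.49 (SE 0.0562, adjusted p = 1.02e-05), and the call held when any 1 mouse was left out. Counts per gene do not separate spliced from unspliced Xbp1 mRNA, so splicing was not measured here. Ern1, the gene of the kinase and nuclease IRE1 that splices Xbp1, was at 71.4, 65.6 and 65.1 CPM in the controls and at 77.4, 79.5 and 79.1 CPM after knockdown. It rose by 16.7%, with a log2 fold change of 0.22 (SE 0.0672, adjusted p = 0.035). This call was near the threshold: it was lost in 5 of the 6 fits without 1 mouse, and with upper-quartile scaling the adjusted p was 0.0510.

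Eif2ak3, the gene of the kinase PERK that slows translation under ER stress, was at 19.0, 18.8 and 18.0 CPM in the GalNAc-siNC mice and at 16.0, 15.3 and 14.7 CPM in the GalNAc-siRnf10 mice. The groups were separate, but with a log2 fold change of -0.28 (SE 0.0942) the adjusted p was 0.0621. Atf6, the sensor that is cut to a transcription factor in the Golgi, had 86.8, 77.7 and 76.3 CPM in the controls and 71.9, 69.5 and 74.1 CPM after knockdown. It was not called (log2 fold change -0.16, adjusted p = 0.152), and the 95% interval ran from -0.31 to -0.012. Without control mouse 1, the highest control, Atf6 was at -0.10 (adjusted p = 0.252), and without control mouse 3 at -0.20 (adjusted p = 0.112). Creb3l3 encodes CREBH, a liver-enriched relative of ATF6 that acts on lipid and acute phase genes. It varied from 307 CPM in control mouse 1 to 392 and 351 CPM in controls 2 and 3, and lay at 311, 327 and 327 CPM after knockdown. With all mice it was not called (log2 fold change -0.12, adjusted p = 0.325), and without control mouse 1, the lowest control, the log2 fold change was -0.21 and the adjusted p 0.00114. Without control mouse 2, the highest control, it was -0.033 (adjusted p = 0.79), and once GC content and length were corrected for, -0.035 (adjusted p = 0.674). Mbtps1, the protease that cuts ATF6 and CREBH, was not called either (log2 fold change -0.14, adjusted p = 0.183).

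ER-associated degradation held both extremes of the group. Herpud1 (ENSMUSG00000031770, chr8:94386438-94395377) encodes an ER membrane protein that helps to assemble the retrotranslocation complex. It was at 247, 265 and 238 CPM in the GalNAc-siNC mice and at 451, 469 and 461 CPM in the GalNAc-siRnf10 mice. This was a 1.84-fold increase, with a log2 fold change of 0.88 (SE 0.0573, adjusted p = 1.18e-08), and leaving out any 1 mouse gave values from 0.84 to 0.92. Derl3 (ENSMUSG00000009092, chr10:75893413-75895941), a derlin of the retrotranslocation channel, was at 11.7, 11.8 and 10.4 CPM in the controls and at 5.22, 6.83 and 4.31 CPM after knockdown. It fell by 51.7%, with a log2 fold change of -1.04 (SE 0.151, adjusted p = 0.000131), and its values without 1 mouse ran from -1.24 to -0.90. Its relatives Derl1 (log2 fold change -0.07, adjusted p = 0.461) and Derl2 (0.08, adjusted p = 0.489) were not called, so that the 3 derlins gave 1 call.

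The ubiquitin ligase of this pathway and its adaptor both fell. Syvn1, the ligase HRD1, was at 82.4, 77.7 and 72.9 CPM in the GalNAc-siNC mice and at 62.4, 66.6 and 60.2 CPM in the GalNAc-siRnf10 mice (log2 fold change -0.30, SE 0.0719, adjusted p = 0.00929). Sel1l, which holds HRD1 together with its substrates, was at 189, 165 and 156 CPM and then at 144, 138 and 140 CPM (log2 fold change -0.28, SE 0.0708, adjusted p = 0.0133). Both had separate groups. Edem1, a mannosidase-like protein that directs misfolded glycoproteins to degradation, was at 202, 193 and 194 CPM in the controls and at 173, 172 and 167 CPM after knockdown (log2 fold change -0.20, SE 0.0572, adjusted p = 0.0237). These 3 calls were the less firm ones. Sel1l and Edem1 lost theirs without any 1 of the GalNAc-siRnf10 mice, and Syvn1 without GalNAc-siRnf10 mouse 1 or 3. Once GC content and length were corrected for, Syvn1 had a smaller log2 fold change of -0.17 and was not called (adjusted p = 0.0876). Syvn1 overlaps Mrpl49 by 91 bases on the opposite strand, Mrpl49 had 742 to 1009 counts per mouse, and whether the counting used the strand is not given in the sources used here. The same holds for Derl2, which overlaps Mis12 (527 to 718 counts per mouse) by 231 bases, and for Manf, which overlaps Dcaf1 (840 to 1160 counts per mouse) by 146 bases. Selenos, a selenoprotein of the same complex, had a log2 fold change of 0.01 (adjusted p = 0.948). Its direction was not fixed: it was at -0.14 once GC content and length were corrected for (adjusted p = 0.165). Without GalNAc-siNC mouse 1 it was at -0.073, and without GalNAc-siNC mouse 3 at 0.080. Herpud1 was the most abundant of the 8 degradation genes in every mouse. The summed CPM of the 8 was 1012, 1004 and 973 in the controls and 1126, 1141 and 1121 after knockdown. Of the 8, 4 fell and Herpud1 alone rose, from a mean of 250 to 460 CPM.

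At the entry to the ER, Sec61a1, the pore-forming subunit of the translocon, fell. It was at 173, 175 and 150 CPM in the GalNAc-siNC mice and at 127, 131 and 137 CPM in the GalNAc-siRnf10 mice (log2 fold change -0.33, SE 0.0685, adjusted p = 0.00289). Control mouse 3 came nearest to the knockdown mice, and the call held without any 1 mouse. Ssr1, a subunit of the translocon-associated complex, was not called (log2 fold change -0.15, adjusted p = 0.104). The other translocon subunit, Sec61b (0.25, adjusted p = 0.530), and the signal peptidase subunit Sec11c (0.19, adjusted p = 0.364) were the most variable members in the controls, with a CV of 26.2% and 21.6%. Without control mouse 3, Sec11c had a log2 fold change of 0.38 and was called (adjusted p = 0.0177), and Sec61b stood at 0.43 (adjusted p = 0.0753). Without control mouse 1 the values were lower, 0.087 for Sec11c and 0.058 for Sec61b, and neither was called. In the knockdown mice the CV of Sec11c was 3.30%, and Derl3 was the most variable member at 23.4%.

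The median CV of the members was 5.46% in the GalNAc-siNC mice and 2.22% in the GalNAc-siRnf10 mice, and over all tested genes it was 11.1% and 7.33%. The control values include mouse 1, which stood apart in the chi-square of raw counts, and the difference in spread was not tested. Relative to each member's mean over the 6 mice, the median log2 deviation was 0.10, 0.088 and 0.088 in the controls and -0.082, -0.11 and -0.11 in the knockdown mice, so that no single mouse set the direction of the group.

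Of the 9 members with an exact ERSE, 5 fell (Calr, Derl3, Hsp90b1, Pdia6 and Syvn1) and none rose (0 with edgeR, with DESeq2 and with limma voom, and 0 at an unadjusted p under 0.05). All 9 log2 fold changes were negative, with a median of -0.28, and in all 9 every knockdown mouse was below every control, against 16.4% of all tested genes. Among the 18 members with a window but no exact ERSE, 8 fell and 2 rose, with a median of -0.18, and 11 of the 18 had every knockdown mouse below every control. With 1 mismatch allowed, 14 members held an ERSE, and these included Herpud1 (0.88) and Derl2 (0.08), both with positive values. Of the members with ERSE-II, Dnajb11 fell and Herpud1 rose. Outside the list, 24 counted genes held an ERSE, and 11 of them were tested. Acacb fell (log2 fold change -0.61) and Xlr3a rose (0.47), both named after their values were seen, and the median of the 11 was 0.025. Xlr3a has near-identical copies that can share reads.

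A list of 85 other ER genes, all tested, was described beside the members. Of these, 11 fell and 0 rose with edgeR (0 also with DESeq2 and limma voom, and 3 at an unadjusted p under 0.05), with a median log2 fold change of -0.06. The share that fell, 11 of 85, compares with 7.28% over all tested genes, and no test of the list was made. Without GalNAc-siNC mouse 1, 20 fell and 1 rose, and without GalNAc-siRnf10 mouse 3, 7 fell. Among 12 other oxidoreductases, 4 fell: Qsox1, a sulfhydryl oxidase (-0.66), Pdia5 (-0.34), Ero1b, which reoxidizes PDI (-0.32), and Txndc5 (-0.18). Qsox1 was at 730, 790 and 755 CPM in the controls and at 465, 489 and 484 CPM after knockdown (adjusted p = 1.53e-07). Creb3l2, an ER-bound transcription factor related to CREBH, was at 43.5, 38.4 and 39.7 CPM and then at 25.2, 22.8 and 25.0 CPM (log2 fold change -0.74, adjusted p = 8.28e-06). Both genes were separate between groups. Wfs1, the ER membrane protein wolframin, fell as well (-0.56, adjusted p = 0.00684), as did Uggt1, the glucosyltransferase that senses folding in the calnexin cycle (-0.30, adjusted p = 0.00478).

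Of 10 oligosaccharyltransferase genes, which attach N-glycans, 2 fell, Rpn1 (-0.32) and Ddost (-0.23). Of 19 other genes of the translocon, signal peptidase and signal recognition particle, 2 fell, the receptor subunit Srpr (-0.28) and Tram1 (-0.22). The 20 other degradation genes gave no call with edgeR (0 higher and 0 lower), against 0 with DESeq2 and 2 lower with limma voom. At an unadjusted p under 0.05, 2 of the 20 were lower. Their median was -0.05.

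**Figure D4:**
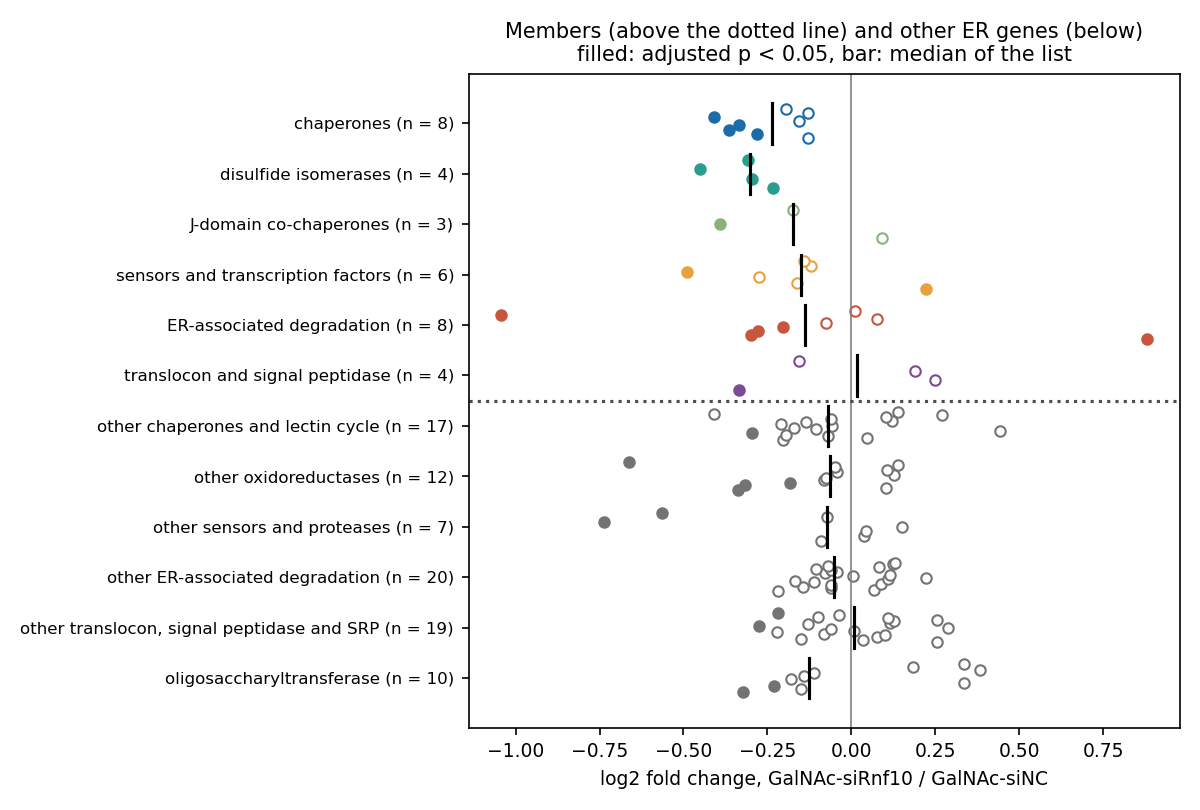
Log2 fold change of GalNAc-siRnf10 over GalNAc-siNC (x axis) of the members by role (coloured, above the dotted line) and of the 85 other ER genes by list (grey, below it); each point is a gene, filled points are called at an adjusted p under 0.05, and bars are medians. All 4 disulfide isomerases are filled and left of 0, whereas none of the 20 other degradation genes is filled.

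The PERK branch acts through the transcription factor ATF4, whose targets serve amino acid supply and recovery of translation. Of 13 genes of this arm, 12 were tested, and 2 rose and 0 fell with edgeR, with a median log2 fold change of 0.24. Over all tested genes, 6.71% rose and 7.28% fell. DESeq2 called 2 higher and 0 lower, limma voom called 5 higher and 1 lower, and before adjustment edgeR gave p under 0.05 to 5 that were higher and 2 that were lower. Ddit4, an inhibitor of mTORC1, was at 2.76, 3.62 and 2.70 CPM in the GalNAc-siNC mice and at 17.4, 14.6 and 16.9 CPM in the GalNAc-siRnf10 mice (log2 fold change 2.43, adjusted p = 2.9e-09). Asns, asparagine synthetase, was at 15.0, 13.6 and 15.5 CPM and then at 21.9, 22.4 and 20.8 CPM (0.57, adjusted p = 0.000549). Both were separate between groups. Atf4 itself (0.07, adjusted p = 0.652) and Ddit3, the gene of CHOP (0.13, adjusted p = 0.737), were not called, and neither was Ppp1r15a (0.09, adjusted p = 0.711), the phosphatase subunit that ends the PERK response. Ddit3 was low, at 2.00 to 2.90 CPM over the 6 mice.

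As a stand-in for the load of secreted proteins, the mRNA of 26 abundant secreted products of the liver was described. CPM is a share of each library, and secreted protein was not measured. Of the 26 products, 8 rose and 10 fell, against 6.71% higher and 7.28% lower over all tested genes. Their summed CPM was 205940, 206672 and 204175 in the controls and 209532, 207534 and 204981 after knockdown, ranges that overlap. Albumin mRNA rose (log2 fold change 0.64) and so did Ttr (0.66), whereas the fibrinogen chains Fga (-0.90), Fgb (-0.83) and Fgg (-0.80) and complement C3 (-0.52) fell. Of 7 secreted factors linked to CREBH, Apcs fell, from 485, 505 and 539 CPM to 247, 256 and 240 CPM (-1.04, adjusted p = 1.88e-09). None rose with edgeR (0 calls, 1 at an unadjusted p under 0.05), and DESeq2 and limma voom each called 1 higher.

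Many ER folding genes have a daily rhythm in liver, and the hour at which tissue was taken is not given in the sources used here. Of 17 clock genes, 16 were tested, 6 rose and 1 fell, against 6.71% higher and 7.28% lower over all tested genes. The changes of largest size were in Per1 (log2 fold change 1.74), Ciart (1.29), Cry1 (0.75), Nr1d1 (-0.68), Per2 (0.42) and Per3 (0.40). Per1 was at 11.2, 12.4 and 11.9 CPM in the GalNAc-siNC mice and at 41.3, 37.2 and 39.9 CPM in the GalNAc-siRnf10 mice. The part of clock phase in the ER results was not tested.

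Markers of other cells that secrete large amounts of protein were low. The 8 B and plasma cell markers summed to 5.5, 4.3 and 5.0 CPM in the controls and 4.2, 6.4 and 4.5 CPM after knockdown. Their most abundant gene was Ighm, and 0 of the 6 tested were called with edgeR, DESeq2 or limma voom (1 at an unadjusted p under 0.05). Mzb1 and Jchain, which define plasma cells, were at 0 to 0.305 CPM and 0.215 to 0.910 CPM. Of 6 pancreatic acinar markers, Cela1 was the most abundant and rose (0.58), and the defining markers Cpa1, Prss2, Pnlip and Ctrb1 were at 0 in every mouse but 1 at most, where the count was 2. The 6 hepatocyte markers were abundant, Alb most of all, with 4 that rose (Alb, Ttr, Cyp2e1 and Cps1) and a summed CPM of 60105, 56425 and 58001 in the controls and 86602, 84742 and 83772 after knockdown. Over all tested genes, 6.71% rose. The label of the tissue as liver thus had its markers.

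Among the other liver cells, 2 of 5 endothelial markers rose with edgeR (Clec4g 0.52 and Lyve1 0.55), and 1 with DESeq2 and with limma voom. Stab2 was at -0.26 (adjusted p = 0.0544), and limma voom called 1 marker of the list lower. The list had a summed CPM of 56.6 to 56.8 in the controls and 58.7 to 62.2 after knockdown and Stab2 the most abundant. The 5 stellate cell markers went both ways: Reln (0.35) and Dcn (0.36) rose, Lrat (-0.27), Col1a1 (-0.26) and Des (-0.20) were not called, and the median was -0.20. Their sums were 86.0 to 88.1 CPM and 102 to 103 CPM, with Dcn the most abundant. None of the 6 Kupffer cell markers was called (0 with edgeR, DESeq2 and limma voom, and 1 lower at an unadjusted p under 0.05), with sums of 143 to 166 CPM and 154 to 162 CPM and Clec4f the most abundant. The 4 cholangiocyte markers, with Sox9 the most abundant, summed to 5.9 to 8.4 CPM and 5.1 to 5.8 CPM, with 0 called by edgeR or DESeq2, 1 lower with limma voom, and 1 at an unadjusted p under 0.05. Of 4 neutrophil markers only S100a9 was tested, and it fell (-1.43), with sums of 1.1 to 2.3 CPM and 0.6 to 0.8 CPM. No marker of these lists was at 0 in every mouse except Cpa1. The part of these cell types in the ER results was not tested.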

How the data were processed

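Liver RNA of 6 mice was sequenced by the authors as paired-end reads of stranded mRNA libraries and mapped to GRCm38 with HISAT2. The submitters' processing notes also name DESeq2. The authors deposited raw counts per gene, without normalization, and gene lengths in bases. The counting tool, annotation release and strand setting are not given in the sources used here. Groups were taken from the labels.

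Low genes were removed per group (filterByExpr), libraries were TMM-scaled, and edgeR 4.0.16 (R 4.3.3) fitted a robust quasi-likelihood model of treatment alone. The p-values of 14046 tested genes were adjusted by Benjamini-Hochberg, and genes were called under 0.05. Symbols came from GENCODE M21, and 346 identifiers had none. CPM used TMM library sizes, and RPKM the deposited lengths. The steps were tested on simulated counts of 14046 genes, where 169 of 200 genes given an absolute log2 fold change of 1 were recovered. Smaller changes, such as those of most members, were not simulated. The members and the lists were chosen with earlier results of these data known. Per-mouse values are given for called members and for Ern1, Atf6, Eif2ak3, Xbp1, Creb3l3 and Hspa5. From other lists, called genes were named, at most the 6 of largest change per list, except that Atf4, Ddit3, Ppp1r15a and cell type markers that were not called were added after their values were seen.

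Depth was 26854377 to 33058645 counts per library, where 3 counts are at most 1.12e-05% of a library, a limit that covers counting error only. Alternatives were DESeq2 1.42.0, limma 3.58.1 (voom with quality weights), RLE and upper-quartile scaling, no filter or a minimum of 10 counts per mouse, a block for the replicate number, a GC and length correction (splines with 5 df), an adjusted p under 0.01, leaving out each mouse, and 1 mismatch in the ERSE. Protein sequences were not analysed here.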

Additional observations from a re-analysis of the deposited data

How the results depend on the processing

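Of 315 values of the 21 members given by mouse under 15 alternatives, 291 kept their direction and side of the threshold, 21 lost a call, 3 gained one and 0 reversed. Members called higher numbered 1 instead of 2 with upper-quartile scaling, with the replicate block and at an adjusted p under 0.01, and 1 to 2 without 1 mouse. With the replicate block Ern1 alone lost its call (adjusted p = 0.0549), and the 15 lower calls were kept. Same-numbered mice did not deviate together (correlations -0.00099, 0.027 and -0.034). With 3 mice per group, such values cannot decide whether the numbers pair them. Members called lower numbered 15 to 18 under the other settings at an adjusted p under 0.05, 13 at 0.01, and 11 to 19 without 1 mouse. The median of the members was -0.17 with the GC and length correction, with or without the replicate block, and -0.22 to -0.18 without 1 mouse. That correction lost the call of Syvn1 (adjusted p = 0.0876, or 0.0927 with the block) and gave one to Hspa5 (0.0245, or 0.0422). The cause was not tested. Of the other 12 members, none of them called, Canx, Creld2 and Dnajc3 were called lower with that correction (adjusted p = 0.0045, 0.00981 and 0.00407), and Canx also with limma voom (0.0467). Without GalNAc-siNC mouse 1, Creld2, Manf and Ssr1 were called lower, without mouse 2 Canx and Dnajc3, and without mouse 3 Sec11c was called higher. Other ER genes called higher numbered 5 without a filter, 2 with the replicate block, 2 with the GC and length correction, 2 with both, and 0 to 4 without 1 mouse, and those called lower 7 to 20 without 1 mouse. All genes called numbered 1042 at an adjusted p under 0.01, 1816 with the replicate block, and 1053 to 2864 without 1 mouse. With 1 mismatch allowed, 14 members held an ERSE instead of 9, Herpud1 and Derl2 among them. Rnf10 kept its call throughout, with log2 fold changes from -1.27 to -1.07. Depth, at 26854377 counts or more per library, left no member untested.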
